A study of Mus musculus with 16 samples.

Results

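The MHC class I genes and the genes that load peptide onto class I molecules were examined in microglia, the resident macrophages of the brain. The 10 genes H2-D1, H2-K1, B2m, H2-M3, H2-T23, Tap1, Tap2, Tapbp, Nlrc5 and Erap1 were picked by symbol from the 53700 lines of each deposited count file, and all 10 were among the 17090 genes with enough counts to be tested. Microglia were sorted from whole brains of mice on a C57Bl6J/FVB cross as DAPI-negative, CD11b-high, CD45-intermediate and Ly6c-negative cells. Bulk RNA was sequenced from 4 groups with 4 libraries each: wild-type mice (WT) and knockouts (KO) of Ercc1, a DNA repair endonuclease subunit, each at 6 and at 12 weeks of age. The 6-week groups were each labelled as 2 males and 2 females, and the 12-week groups as 3 males and 1 female. The KO allele, and whether each library stands for 1 animal, are not given in the labels, so p-values measure the spread between these libraries.

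Class I molecules are heavy chains that pair with beta-2 microglobulin, the product of B2m, and carry short peptides to the cell surface, where CD8 T cells and natural killer cells read them. The peptides come mostly from the proteasome, enter the endoplasmic reticulum through the TAP1-TAP2 transporter, are trimmed by ERAP1 and are fitted into the groove with the help of tapasin, the product of Tapbp. Class I genes are induced by interferons in many cell types, through interferon regulatory factor (IRF) elements and through NLRC5, a transactivator that acts with promoter-bound RFX, CREB and NF-Y proteins. In the healthy brain their level is low in most cells, and microglia are among the cells that raise it when activated.

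The promoters of the 4 genes that were higher in KO at both ages are shown because they let the members that moved together be compared by sequence. RefSeq windows were at hand for 8 of the 10 genes (build GRCm38.p6). Each line gives the 250 bases before the start site, 5′ to 3′, and capitals mark an IRF element (AANNGAAA), the core TGACG of a CREB site (CRE core), the CCAAT box bound by NF-Y, each on either strand, and TGGGGATTCCCCA, the longest palindrome in the run that H2-D1 and H2-K1 share, which holds the kB site known from class I promoters.
H2-D1 (chr17:35262844-35263093, plus strand): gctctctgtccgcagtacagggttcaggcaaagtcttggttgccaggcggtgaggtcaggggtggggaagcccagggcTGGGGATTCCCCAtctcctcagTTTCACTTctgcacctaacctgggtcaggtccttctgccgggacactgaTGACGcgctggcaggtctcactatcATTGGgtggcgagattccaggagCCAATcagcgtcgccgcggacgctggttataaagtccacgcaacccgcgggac
H2-K1 (chr17:34000348-34000597, minus strand): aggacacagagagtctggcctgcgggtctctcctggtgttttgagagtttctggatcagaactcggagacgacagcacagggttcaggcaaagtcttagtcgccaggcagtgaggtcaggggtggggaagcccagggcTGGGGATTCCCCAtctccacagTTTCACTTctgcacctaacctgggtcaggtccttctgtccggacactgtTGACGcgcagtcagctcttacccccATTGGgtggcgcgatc
B2m (chr2:122147437-122147686, plus strand): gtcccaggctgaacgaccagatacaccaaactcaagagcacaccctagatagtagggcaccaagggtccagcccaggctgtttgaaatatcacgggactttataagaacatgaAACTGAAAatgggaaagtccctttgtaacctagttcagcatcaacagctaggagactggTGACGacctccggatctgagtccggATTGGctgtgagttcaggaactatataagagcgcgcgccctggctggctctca
H2-M3 (chr17:37269984-37270233, plus strand): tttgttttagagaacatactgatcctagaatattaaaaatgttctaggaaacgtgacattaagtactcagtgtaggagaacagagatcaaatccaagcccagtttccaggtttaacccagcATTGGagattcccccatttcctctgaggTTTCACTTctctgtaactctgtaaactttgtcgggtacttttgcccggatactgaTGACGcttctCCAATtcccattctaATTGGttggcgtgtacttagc

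H2-D1 and H2-K1 carried the palindrome, the IRF element and the CRE core in the same order, with 22 bases from the start of the palindrome to that of the IRF element and 49 from there to the CRE core in both genes. The longest run that these 2 windows shared was 47 bases, and neither shared more than 12 with any other member's window. B2m and H2-M3 had an IRF element and a CRE core, with starts 59 and 55 bases apart, and lacked the palindrome. Over the whole 300-base windows, which reach 50 bases past the start, an IRF element was present in 6 of 8 members (H2-D1, H2-K1, B2m, H2-M3, H2-T23 and Erap1). It was present in 23.9% of the 32851 promoter windows of that length that were searched. The palindrome, which was taken from H2-D1 and H2-K1 themselves, was found in 2 of 8 members and in 4 windows in all (0.0122%). H2-K1 had 2 overlapping RefSeq windows, both with the palindrome, so windows are not a count of genes. The first of them is shown. A CRE core was present in 5 of 8 members against 20.8% of windows, and a CCAAT box in 7 of 8 against 37.4%. All motifs were chosen with the sequences in view, so these shares are a description and not a test. Tapbp held a CCAAT box and none of the other 3 patterns searched, and Tap1 a CRE core and a CCAAT box. A match describes letters only, and binding was not measured.

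**Figure D1:**
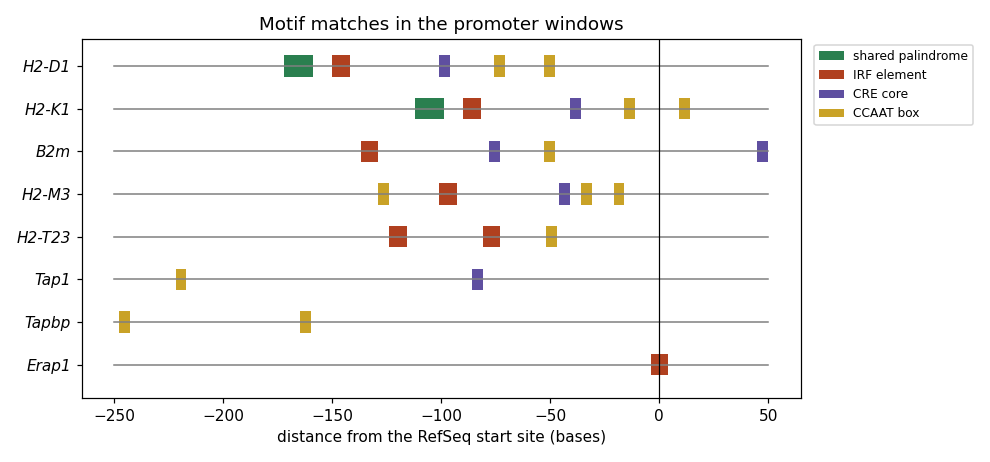
Positions of the motif matches in the promoter windows of 8 of the 10 genes; the horizontal axis is the distance in bases from the RefSeq start site (vertical line), and each coloured block is 1 match on either strand. H2-D1 and H2-K1 show the same order and spacing of 3 motifs, 22 and 49 bases between starts, shifted relative to the annotated start.

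Library totals ranged from 7882182 to 22142972 counts, and 17249 to 21472 genes had a count. Ercc1 was at 19.3% of the WT mean in KO at 6 weeks and at 20.7% at 12 weeks, without overlap at either age (two-sided exact permutation test, p = 0.0286 each, the smallest p that 4 against 4 can give). The 10 microglia markers were present in every library, and their summed level in CPM (counts per 1000000 counts of the TMM-scaled library size) was 71613 to 78378 in WT and 59696 to 70114 in KO at 6 weeks. At that age only 1 of the 10 had a positive log2 change in KO against WT, and 1 was called lower. At 12 weeks the sum was 64978 to 72596 in WT and 51260 to 53900 in KO, where all 10 had a negative log2 change and P2ry12, Cx3cr1 and Gpr34 were called lower. The 9 markers of border-associated macrophages, which line brain vessels and membranes, were all detected. Their sum was 54.6 to 96.9 CPM in WT and 138 to 307 CPM in KO at 6 weeks, and 10.7 to 61.9 CPM in WT and 121 to 201 CPM in KO at 12 weeks. All 9 of these markers had a positive log2 change in KO at both ages, and Ms4a7 at 12 weeks was the only one past the threshold. Mitochondrial genes took 0.221% ± 0.0306 (SD, n = 4) of counts in WT and 0.350% ± 0.0367 in KO at 6 weeks, and 0.326% ± 0.0448 in WT and 0.567% ± 0.0855 in KO at 12 weeks. The 5 erythroid markers summed to 2.37 to 34.1 CPM in 12-week WT and 13.1 to 109.9 in 12-week KO. The 7 monocyte markers summed to 1.08 to 11.4 and 15.02 to 31.5, with Ly6c2 and Chil3 at 0 in both groups. No marker of either list was called. All 3 monocyte markers tested had a positive log2 change at 12 weeks, and 2 had an unadjusted p under 0.05 (edgeR, 14.4% of all genes). Every 12-week KO library was above every WT library for Plac8 (means 0.747 in WT and 7.91 CPM in KO) and Fn1 (0 and 3.20 CPM). Ccr2 overlapped, and Vcan, not tested, had the lower mean in KO (1.88 and 1.08 CPM). Of 8 endothelial markers Flt1 was called higher at 12 weeks (0 CPM in every WT library and 0.202 to 14.4 in KO, adjusted p = 0.043, edgeR), while their sum was 13.4 to 64.4 CPM in WT and 28.9 to 45.7 in KO. The other endothelial markers tested, Pecam1 and Kdr, had lower means in 12-week KO and were not called. Pecam1 was at 35.6 CPM in WT and 21.7 in KO, and Kdr at 7.94 and 5.32. At 6 weeks every KO library was below every WT library for Pecam1 (means 60.2 and 25.1 CPM). The part of these shifts in the results on class I genes was not tested. Of the T and NK cell markers, Trbc2, Cd8a and Ncr1 were at 0 in all 16 libraries, and the 12 markers together reached at most 10.95 CPM. On principal components, 12-week WT libraries 3 and 8 and 12-week KO library 4 stood apart from their groups, and 12-week WT library 5_6, labelled male, held both Xist (349.6 CPM) and Y-linked counts (112.6 CPM, both before TMM scaling).

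At 6 weeks 4 of the 10 genes were higher in KO microglia, the classical heavy chains H2-D1 and H2-K1, the light chain B2m and the nonclassical heavy chain H2-M3, and none was lower (edgeR's quasi-likelihood test, adjusted p under 0.05 over all genes tested). Over all genes tested, 0.796% were called higher and 0.0761% lower in that comparison. At 12 weeks 6 of the 10 were higher, the same 4 with H2-T23 and Tap1, and again none was lower, where 2.03% of all genes were called higher and 0.954% lower. The median log2 change of the 10 genes was 0.81 at 6 weeks and 1.76 at 12 weeks, beside -0.02 and -0.03 over all genes tested. All KO libraries lay above all WT libraries for 5 of the 10 genes at 6 weeks (4.92% of all genes) and for 6 of 10 at 12 weeks (5.13%). Leaving out 12-week WT libraries 3 and 8, alone or with 12-week KO library 4, gave 6 genes as well. In bulk samples, fewer cells of a type and less RNA per cell cannot be told apart.

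**Figure D2:**
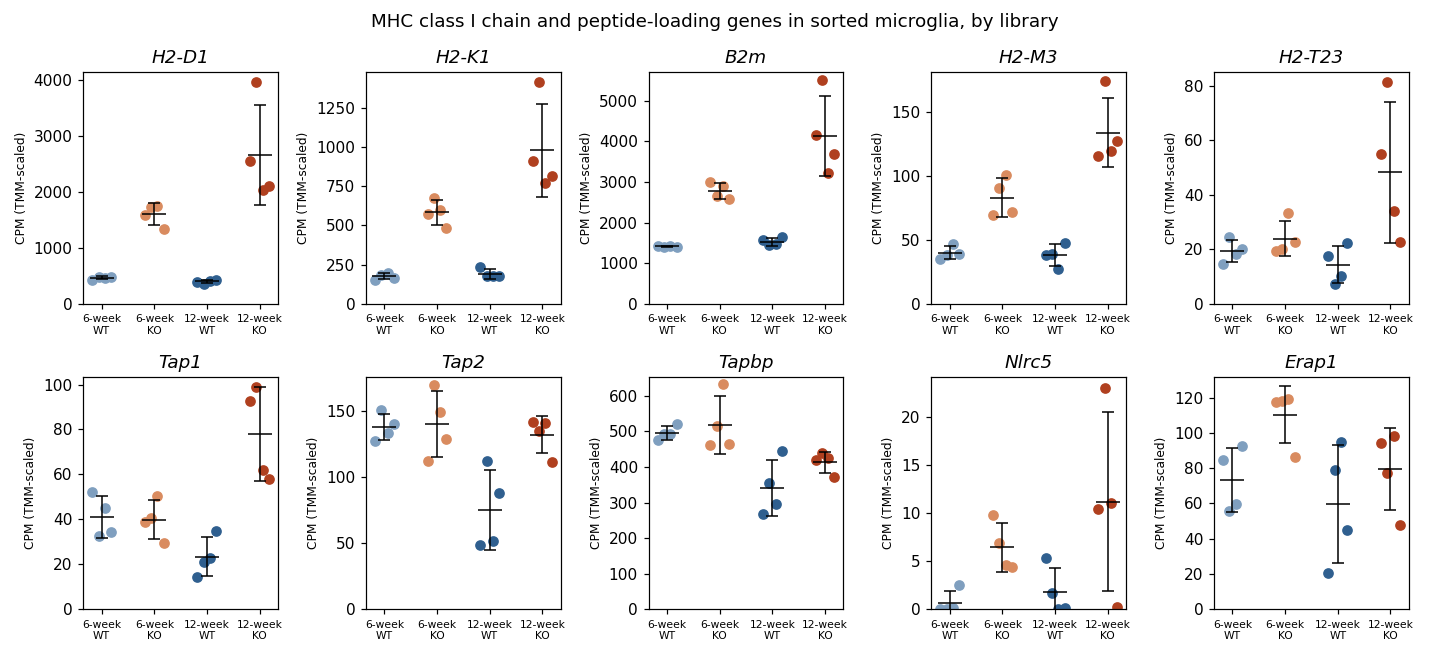
Level of each of the 10 genes in every library, in CPM on TMM-scaled library sizes (vertical axis, from 0), by group (horizontal axis); points are libraries, and the bar and whiskers give mean and SD over 4 libraries. The KO points of H2-D1, H2-K1, B2m and H2-M3 lie above all WT points at both ages, while Tap2, Tapbp and Erap1 overlap between genotypes.

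H2-D1 encodes one of the classical class I heavy chains, which present peptide to CD8 T cells. Its level was 426, 474, 466 and 484 CPM in 6-week WT libraries 1 to 4 and 1593, 1731, 1749.6 and 1337 CPM in 6-week KO libraries 1 to 4. At 12 weeks it was 395, 362, 413 and 432 CPM in WT libraries 3, 4, 5_6 and 8 and 2550.1, 3964, 2026 and 2108 CPM in KO libraries 1 to 4. The 2 WT groups lay close together, both KO groups lay far above them without overlap, and KO library 2 was the highest at 12 weeks. KO was 3.46-fold WT by group means at 6 weeks (log2 change 1.79 ± 0.17 SE, adjusted p = 5.6e-05, edgeR) and 6.65-fold at 12 weeks (2.73 ± 0.18, adjusted p = 4.7e-07). In order of means the groups ran 400.5 ± 29.6 in 12-week WT, 463 ± 25.3 in 6-week WT, 1603 ± 190.3 in 6-week KO and 2662 ± 898 CPM in 12-week KO (SD, n = 4). The 2 WT neighbours in that order overlapped.

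H2-K1, the other classical heavy chain gene of this list, followed H2-D1 at a lower level. It stood at 155, 185, 195 and 167 CPM in 6-week WT and at 576, 677, 601 and 483 CPM in 6-week KO. The 12-week values were 236, 175, 176 and 174 CPM in WT and 909, 1417, 772 and 816 CPM in KO. Genotypes did not overlap at either age, WT library 3 was the highest of its group, and KO library 2 was again the highest of all. The KO level was 3.32-fold WT at 6 weeks (log2 change 1.73 ± 0.17, adjusted p = 7.5e-05, edgeR) and 5.14-fold at 12 weeks (2.38 ± 0.18, adjusted p = 1.3e-06).

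The H2 genes are polymorphic and have close relatives, which bears on how reads are assigned. In GENCODE M21 transcripts (build GRCm38), 12.8% of the 50-base words of H2-D1, 9.63% of those of H2-K1 and 14.5% of those of H2-T23 also occur in another gene, against 0% for B2m and 0.576% for H2-M3. C57BL/6 and FVB mice carry different H2 haplotypes, the haplotype of each library is not given in the labels, and the submitters' processing notes name build GRCm39. The part of haplotype in the H2-D1 and H2-K1 counts was not tested.

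B2m encodes the invariant light chain that every class I heavy chain needs to reach the surface. Its level was 1421, 1408, 1429.6 and 1389 CPM in 6-week WT and 2995, 2666, 2907 and 2569.9 CPM in 6-week KO. At 12 weeks it was 1561, 1443, 1466 and 1649 CPM in WT and 4151, 5508, 3219 and 3700.0 CPM in KO. The 6-week WT libraries differed little among themselves (SD 17.5), both KO groups lay above both WT groups, and the 2 KO ages did not overlap. KO was 1.97-fold WT at 6 weeks (log2 change 0.98 ± 0.12, adjusted p = 5.1e-04, edgeR) and 2.71-fold at 12 weeks (1.43 ± 0.12, adjusted p = 5.3e-06).

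The fold of means was larger for both classical heavy chains than for B2m at each age, a difference that was not tested. H2-D1 and H2-K1 together gave 0.409 to 0.469 counts per count of B2m in 6-week WT (mean 0.452 ± 0.0289 SD, n = 4) and 0.708 to 0.903 in 6-week KO (0.786 ± 0.0896). The ratio was 0.368 to 0.404 in 12-week WT (0.386 ± 0.0193) and 0.790 to 0.977 in 12-week KO (0.867 ± 0.0799). The genotypes did not overlap at either age, and the 2 KO ages did. H2-K1 per count of H2-D1 was 0.380 ± 0.0324 in 6-week WT, 0.364 ± 0.0198 in 6-week KO and 0.371 ± 0.0159 in 12-week KO. It was 0.477 ± 0.0868 in 12-week WT, where library 3 reached 0.598. The 10 genes together made up 0.282% ± 0.00602 of all counts in WT and 0.575% ± 0.0400 in KO at 6 weeks. At 12 weeks their share was 0.273% ± 0.0237 in WT and 0.880% ± 0.218 in KO, with 1.19% in KO library 2.

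**Figure D3:**
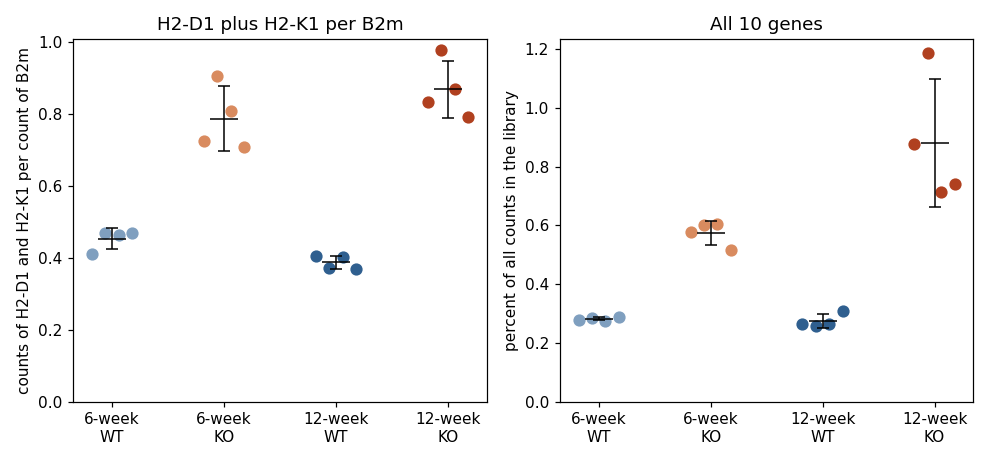
Left, counts of H2-D1 and H2-K1 per count of B2m in each library; right, the share of all counts taken by the 10 genes, in percent; points are libraries by group, with mean and SD over 4. WT ratios lie between 0.368 and 0.469 and KO ratios between 0.708 and 0.977.

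H2-M3 encodes a nonclassical heavy chain that presents N-formylated peptides. Its level was 35.2, 38.4, 46.9 and 39.1 CPM in 6-week WT and 69.7, 90.2, 101 and 71.4 CPM in 6-week KO. It was 38.4, 39.1, 26.9 and 47.9 CPM in 12-week WT and 116, 174, 119 and 127 CPM in 12-week KO. Every KO library was above every WT library of either age, and the 12-week KO libraries were all above the 6-week ones. The fold of means was 2.08 at 6 weeks (log2 change 1.05 ± 0.20, adjusted p = 0.016, edgeR) and 3.52 at 12 weeks (1.82 ± 0.20, adjusted p = 7.4e-05). The 6-week call was lost when 6-week WT library 1, 2 or 4 or KO library 2 or 3 was left out, with adjusted p between 0.055 and 0.082 and log2 changes of 0.96 to 1.06.

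H2-T23 encodes Qa-1, which presents leader peptides of other class I chains to the CD94-NKG2 receptors of natural killer cells. It was at 14.6, 24.5, 18.1 and 20.2 CPM in 6-week WT and at 19.5, 20.0, 33.3 and 22.7 CPM in 6-week KO, with broad overlap. At 12 weeks it was at 17.4, 7.30, 10.2 and 22.4 CPM in WT and at 54.9, 81.5, 33.9 and 22.6 CPM in KO, where KO library 4 was just above WT library 8. At 6 weeks the log2 change was 0.30 ± 0.40 (95% interval -0.55 to 1.15, adjusted p = 1.00, edgeR), and at 12 weeks it was 1.77 ± 0.41 (adjusted p = 0.027). The 12-week call was lost without WT library 3 (log2 change 1.89), 4 (1.57) or 5_6 (1.67) and without KO library 1 (1.74) or 2 (1.39), with adjusted p between 0.054 and 0.096. It was lost as well in edgeR with the replicate number as a block (1.85, adjusted p = 0.14) and when 12-week libraries were fitted alone (1.75, adjusted p = 0.19). No other library shared the numbers of WT libraries 5_6 and 8. In the block fit the 12-week WT level therefore rested on WT libraries 3 and 4.

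Tap1 and Tap2 encode the 2 subunits of the peptide transporter. Tap1 stood at 52.0, 32.5, 45.1 and 34.2 CPM in 6-week WT and at 38.8, 40.5, 50.4 and 29.4 CPM in 6-week KO, so the genotypes overlapped. Its 12-week values were 14.1, 21.1, 22.7 and 35.0 CPM in WT and 92.9, 99.1, 61.9 and 57.9 CPM in KO, with no overlap. The log2 change was -0.03 ± 0.28 at 6 weeks (95% interval -0.61 to 0.56, adjusted p = 1.00, edgeR) and 1.76 ± 0.28 at 12 weeks (adjusted p = 0.0021), a 3.36-fold difference of means. The 12-week difference had parts on both sides: the KO mean was 77.9 ± 21.0 CPM against 39.8 ± 8.63 at 6 weeks, and the WT mean was 23.2 ± 8.66 against 40.9 ± 9.25.

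Tap2 gave 127, 151, 134 and 139.9 CPM in 6-week WT and 112, 169, 149.6 and 129 CPM in 6-week KO. In 12-week WT it gave 48.7, 112, 51.6 and 88.3 CPM, and in 12-week KO 142, 135, 141 and 111 CPM. The 6-week groups and the 12-week KO group lay on one level, and 12-week WT was the low group. KO against WT was 0.02 ± 0.23 on the log2 scale at 6 weeks (95% interval -0.46 to 0.51) and 0.81 ± 0.23 at 12 weeks (0.33 to 1.30, adjusted p = 0.073, edgeR). The 12-week difference passed the threshold without WT library 4 (1.09, adjusted p = 0.011), without a filter on low counts (adjusted p = 0.0016) and in DESeq2 (adjusted p = 0.0079).

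Tapbp, the gene of tapasin, which bridges TAP to empty class I molecules, was at 475, 494, 494 and 520.5 CPM in 6-week WT and 461, 515, 634 and 464 CPM in 6-week KO. It was at 267, 355, 295 and 445 CPM in 12-week WT and 419, 439, 426 and 371 CPM in 12-week KO. The genotypes overlapped at both ages. Its log2 change was 0.06 ± 0.14 at 6 weeks (95% interval -0.24 to 0.37, adjusted p = 1.00, edgeR) and 0.28 ± 0.14 at 12 weeks (-0.02 to 0.58, adjusted p = 0.40). Exons of Tapbp overlap other genes over 29% of their length in GENCODE M21, mostly an antisense gene, and those of Tap2 over 18.5%. The strand setting of the counting is not given in the sources used here, so reads of these partners cannot be told apart.

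Erap1 encodes the aminopeptidase that trims peptides inside the endoplasmic reticulum. Its level was 84.3, 55.7, 59.7 and 92.4 CPM in 6-week WT and 117, 118, 119 and 86.3 CPM in 6-week KO. The 12-week values were 20.4, 78.7, 94.5 and 44.8 CPM in WT and 94.2, 77.4, 98.4 and 47.4 CPM in KO. Libraries of 1 group differed widely, above all in 12-week WT, and genotypes overlapped. The log2 change was 0.64 ± 0.35 at 6 weeks (95% interval -0.11 to 1.39, adjusted p = 0.81, edgeR) and 0.48 ± 0.36 at 12 weeks (-0.28 to 1.24, adjusted p = 0.63). The opposite-strand gene Cast shares 10.7% of the 50-base words of Erap1.

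Nlrc5, the transactivator of class I genes, had at most 1 count in 5 of the 8 WT libraries. Its counts in 6-week WT libraries 1 to 4 were 0, 0, 1 and 21, and in 6-week KO they were 101, 121, 43 and 77. In 12-week WT they were 49, 18, 1 and 1, and in 12-week KO 104, 217, 90 and 2. At 6 weeks every KO library was above every WT library, whereas at 12 weeks KO library 4 fell among the WT libraries. The means were 0.656 ± 1.26 and 6.44 ± 2.53 CPM at 6 weeks and 1.79 ± 2.46 and 11.2 ± 9.31 CPM at 12 weeks. The log2 change was 3.30 ± 1.58 at 6 weeks (95% interval -0.07 to 6.66, adjusted p = 0.71, edgeR) and 2.69 ± 1.55 at 12 weeks (-0.62 to 6.00, adjusted p = 0.48). Leaving out 1 library at a time gave 2.75 to 7.68 at 6 weeks and 2.11 to 4.59 at 12 weeks, with no call. Without a filter on low counts both passed the threshold (adjusted p = 0.021 and 0.0497).

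**Figure D4:**
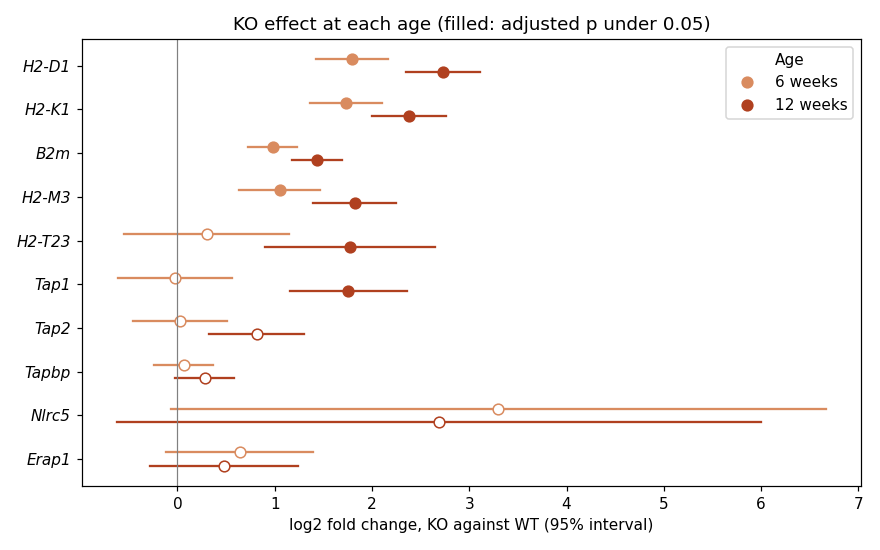
Log2 fold change of KO against WT at 6 and 12 weeks for the 10 genes (horizontal axis, 95% interval as a line); filled points had adjusted p under 0.05 in edgeR. At 12 weeks H2-D1 has a change of 2.73 and Tapbp of 0.28, and the interval of Nlrc5 spans 0 at both ages.

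Per kilobase of exon, the order of levels in 6-week WT was B2m (1642 CPM per kb), H2-D1 (179), Tapbp (137), H2-K1 (59.8), Tap2 (36.4), H2-M3 (27.7), Erap1 (10.03), Tap1 (7.48), H2-T23 (6.71) and Nlrc5 (0.0772). SDs of Tap1 (1.69) and H2-T23 (1.43) were larger than the gap between them. In 12-week KO the chains had moved up: B2m stood at 4819, H2-D1 at 1032, H2-K1 at 333, Tapbp at 114 and H2-M3 at 93.2 CPM per kb. H2-K1 stood above Tapbp there and H2-M3 above Tap2, which was at 34.9 CPM per kb. Both orders were already present in 6-week KO. There H2-K1 was at 199 ± 27.1 and Tapbp at 143 ± 22.4, and H2-M3 at 57.8 ± 10.5 and Tap2 at 37.1 ± 6.56 CPM per kb. In 12-week WT, H2-K1 (64.7) was still below Tapbp (93.9), whereas H2-M3 (26.5 ± 5.99) was already above Tap2 (19.9 ± 8.06). In 12-week KO the ranges of mean ± SD overlapped for H2-T23 (16.7 ± 8.96), Tap1 (14.2 ± 3.84) and Erap1 (10.9 ± 3.18), and Nlrc5 was lowest at 1.32. Lengths are those of GENCODE M21 exon unions on GRCm38.

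The comparison of ages within KO asked whether the level in KO changed with age. In edgeR 0 of 10 genes were called higher at 12 than at 6 weeks in KO, against 0.00585% of all genes, although 7 of 10 had an unadjusted p under 0.05 (8.8% of all genes). DESeq2 called 5 (H2-D1, H2-K1, B2m, H2-M3 and Tap1), where 130 of 17090 genes were called higher. EdgeR without a filter on low counts called 3 (H2-D1, H2-K1 and B2m), where 75 of 29343 genes were called higher. The 12-week KO libraries were all above the 6-week KO libraries for those 5 genes, which is 5 of 10 against 3.05% of all genes. The log2 changes were 0.72 ± 0.17 for H2-D1 (adjusted p = 0.17, edgeR), 0.80 ± 0.17 for H2-K1 (0.12), 0.55 ± 0.12 for B2m (0.13), 0.74 ± 0.20 for H2-M3 (0.23), 0.90 ± 0.29 for Tap1 (0.33) and 1.07 ± 0.42 for H2-T23 (0.46). The size of these changes leaned on the 12-week KO library 2. Without it those of H2-D1 and H2-K1 were at their lowest over single libraries left out, 0.49 and 0.57. Tapbp was the 1 gene of the 10 with all 12-week KO libraries below the 6-week ones (3.51% of all genes), at -0.32 ± 0.15 (adjusted p = 0.55). Tap2 (-0.08 ± 0.23), Erap1 (-0.55 ± 0.36) and Nlrc5 (0.81 ± 1.41) overlapped between ages. The summed level of border-associated macrophage markers overlapped between the KO ages (138 to 307 and 121 to 201 CPM). That of the 10 microglia markers did not, at 59696 to 70114 CPM at 6 weeks and 51260 to 53900 CPM at 12 weeks. Of these markers 0 had a positive log2 change with age in KO, and 1 was called lower. All 5 erythroid markers had a positive change, and 0 were called. The part of these shifts in the age changes of the 10 genes was not tested.

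In WT microglia no chain passed the threshold between ages, and the loading genes had negative changes that did not pass it either. EdgeR called 0 of 10 genes lower, against 0.0117% of all genes, and 3 of 10 had an unadjusted p under 0.05 (7.44% of all genes). All 12-week WT libraries were below the 6-week ones for 2 genes, Tap2 and Tapbp (3% of all genes), and above them for 1 gene, B2m (2.31%). The log2 changes were -0.88 ± 0.29 for Tap1 (adjusted p = 0.44, edgeR), -0.87 ± 0.24 for Tap2 (0.35) and -0.54 ± 0.15 for Tapbp (0.35). Tap2 passed the threshold in DESeq2 (adjusted p = 0.036), and Tap2 and Tapbp did so in edgeR without a filter on low counts (0.0056 and 0.027). For the chains the changes were -0.21 ± 0.17 for H2-D1, 0.15 ± 0.17 for H2-K1, 0.10 ± 0.12 for B2m, -0.03 ± 0.20 for H2-M3 and -0.40 ± 0.41 for H2-T23. Erap1 (-0.39 ± 0.36) and Nlrc5 (1.42 ± 1.62) varied too much between libraries to place. The sign of the B2m change turned when WT libraries 3 and 8 were left out (-0.022), and so did that of Erap1 (0.24).

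Whether the KO effect differed between ages was tested as an interaction. No gene of the 10 was called in edgeR, where 0.00585% of all genes were called higher, and 7 of 10 had an unadjusted p under 0.05 (4.74% of all genes). Tap1 had the largest difference of effects among the 6 genes called at 12 weeks, 1.78 ± 0.39 (unadjusted p = 3.8e-04, adjusted p = 0.54, edgeR). H2-D1 had 0.94 ± 0.24 (unadjusted p = 0.0012, adjusted p = 0.80). DESeq2 called these 2 genes (adjusted p = 0.0069 for Tap1 and 0.027 for H2-D1), and so did edgeR without a filter. Over all genes, 30 of 17090 were called higher in DESeq2 and 82 of 29343 in edgeR without a filter. The difference was 0.65 ± 0.24 for H2-K1, 0.45 ± 0.17 for B2m, 0.77 ± 0.27 for H2-M3, 1.47 ± 0.57 for H2-T23 and 0.79 ± 0.32 for Tap2. It was 0.22 ± 0.20 for Tapbp, -0.16 ± 0.50 for Erap1 and -0.61 ± 2.15 for Nlrc5. Tap1 and H2-T23 were called at 12 weeks and not at 6 weeks, and their difference between ages did not itself pass the adjusted edgeR test.

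Across the 16 libraries Pearson's r of log2 CPM was 0.99 between H2-D1 and H2-K1, 0.98 between H2-D1 and B2m and 0.96 between H2-D1 and H2-M3. Between H2-T23 and each of these 4 chains it was 0.75 to 0.79, and between H2-T23 and Tap1 0.78. It was 0.85 between Tap2 and Tapbp, 0.64 between Tap1 and Tap2, 0.75 between H2-D1 and Tap1 and 0.15 between B2m and Tapbp. These values describe 16 libraries that share 4 groups and their depth. The genes outside the list whose pattern was most like H2-D1 were Rtp4 (r = 0.985), Cd69 (0.979) and Lgals3bp (0.979), and for H2-K1 they were Rtp4 (0.989), Ccl12 (0.976) and Cd69 (0.972). For B2m they were Ccl12 (0.983), Rtp4 (0.972) and Ctsz (0.968). H2-M3 was most like Cd34 (0.964), H2-T23 like Irf7 (0.848), Tap1 like Cdk1 (0.868), Tap2 like Naglu (0.926), Tapbp like Unc93b1 (0.965), Nlrc5 like Gbp2 (0.845) and Erap1 like Prkar1b (0.920).

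Other genes of the pathway were read from 7 lists, which were chosen with earlier results of these data known. Beside the counts below, 0.796% of all genes tested were called higher in KO at 6 weeks and 2.03% at 12 weeks. Of the other class I heavy chains, 16 had a row and 7 were tested; 0 were called at 6 weeks and 2 were higher at 12 weeks. H2-Q4 was at 3.12 ± 0.0879 and 9.42 ± 1.15 CPM in WT and KO at 6 weeks (log2 change 1.59 ± 0.37, adjusted p = 0.063, edgeR) and at 2.70 ± 1.29 and 17.4 ± 2.21 CPM at 12 weeks (2.70 ± 0.39, adjusted p = 7.2e-04). H2-T22 was at 8.30 ± 2.84 and 29.1 ± 8.08 CPM at 12 weeks (1.79 ± 0.34, adjusted p = 0.0078). H2-T24 did not pass (1.00 ± 0.27, adjusted p = 0.061). All 7 had a positive change at both ages, with a median of 0.60 and 2.70. H2-M2 had no count in WT, and the median was the same when its WT level was put at 3 counts summed over the 4 libraries.

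Class I-like molecules, which share the fold but do not load peptide through TAP, had 6 tested genes and 0 calls at either age. Fcgrt, the neonatal Fc receptor, changed by 0.28 ± 0.12 at 12 weeks (adjusted p = 0.31, edgeR), Hfe, a regulator of iron uptake, by -0.22 ± 0.12 and Mr1, which presents vitamin B metabolites, by 0.02 ± 0.29. The endoplasmic reticulum chaperones of class I assembly also had 0 of 7 called. Their best-expressed genes stayed near 0 on the log2 scale at 12 weeks: 0.02 ± 0.11 for Calr, 0.07 ± 0.09 for Canx and 0.09 ± 0.08 for Pdia3, each with an interval inside -0.22 to 0.28. Among other peptidases, 0 of 6 were called, with 0.21 ± 0.29 for Tpp2, -0.20 ± 0.25 for Lnpep and 0.53 ± 0.22 for Lap3 at 12 weeks.

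Of 10 proteasome genes that supply peptides, 0 were called at 6 weeks and 3 were higher at 12 weeks. Psmb8, an immunoproteasome catalytic subunit, went from 170 ± 24.2 CPM in 12-week WT to 264 ± 63.8 in KO (0.64 ± 0.16, adjusted p = 0.038, edgeR). Both subunits of the PA28 activator were higher, Psme1 by 0.93 ± 0.19 (adjusted p = 0.014) and Psme2 by 0.90 ± 0.22 (adjusted p = 0.035). Psmb6, a constitutive catalytic subunit (0.22 ± 0.14), and Pomp, an assembly factor (0.15 ± 0.13), did not pass. Nor did Psmb9 and Psmb10, the other immunoproteasome catalytic subunits listed, whose genotypes overlapped at 12 weeks. Psmb9 was at 52.8 ± 21.1 CPM in WT and 79.4 ± 13.4 in KO. Psmb10 had the lower mean in KO, 104 ± 32.1 CPM in WT and 90.0 ± 12.5 in KO.

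Of 16 listed transcription factors of class I genes, 1 was called at 6 weeks and 3 at 12 weeks, all higher and all from the interferon pathway. Irf7, an interferon regulatory factor, was at 7.10 ± 2.94 and 48.0 ± 10.8 CPM in WT and KO at 6 weeks (2.77 ± 0.56, adjusted p = 0.027, edgeR) and at 2.42 ± 1.81 and 99.0 ± 60.7 CPM at 12 weeks (5.37 ± 0.63, adjusted p = 1.5e-04). Stat2 (1.60 ± 0.32, adjusted p = 0.010) and Irf9 (0.92 ± 0.16, adjusted p = 0.0040), which belong to the ISGF3 complex of interferon signalling, passed at 12 weeks. None of the subunits of RFX and NF-Y in the list, nor Creb1, passed at either age, and the best-expressed factors Irf8 (0.09 ± 0.12), Nfkb1 (-0.04 ± 0.14) and Irf2 (-0.31 ± 0.14) did not pass at 12 weeks. Among those not called, Nfyb was at 43.1 ± 6.69 CPM in 12-week WT and 24.1 ± 9.36 in KO, with every KO library below every WT library. Nfya and Nfyc overlapped. Irf1 was at 50.3 ± 14.7 and 76.5 ± 7.76 CPM at 12 weeks, with every KO library above every WT library.

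A list of 11 receptor genes, drawn up as receptors of class I, had 9 rows and 5 tested genes, with 1 call at 6 weeks and 2 at 12 weeks. Lilrb4a, an inhibitory receptor for which class I is not an established ligand, was at 3.06 ± 1.79 and 39.9 ± 10.002 CPM in WT and KO at 6 weeks (3.69 ± 0.69, adjusted p = 0.017, edgeR) and at 3.43 ± 2.34 and 60.3 ± 20.6 CPM at 12 weeks (4.08 ± 0.70, adjusted p = 0.0037). Pilra, an inhibitory receptor of sialylated glycoproteins, was higher at 12 weeks (0.85 ± 0.19, adjusted p = 0.024). Pirb, an inhibitory receptor of myeloid cells that binds class I, changed by 0.55 ± 0.31 at 6 weeks and 0.76 ± 0.31 at 12 weeks and did not pass (adjusted p = 0.81 and 0.25, edgeR). Klrd1, the CD94 chain of the receptor that reads Qa-1, had negative changes that did not pass, -1.09 ± 0.87 at 6 weeks and -1.87 ± 0.90 at 12 weeks (adjusted p = 0.98 and 0.36). Its 12-week level was 10.04, 4.45, 4.64 and 8.85 CPM in WT and 3.02, 0.743, 4.18 and 0 CPM in KO, with every KO library below every WT library. Klrc1, which encodes the NKG2 partner of CD94, and Cd8a, a chain of the T cell coreceptor for class I, had no count in any library.

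**Figure D5:**
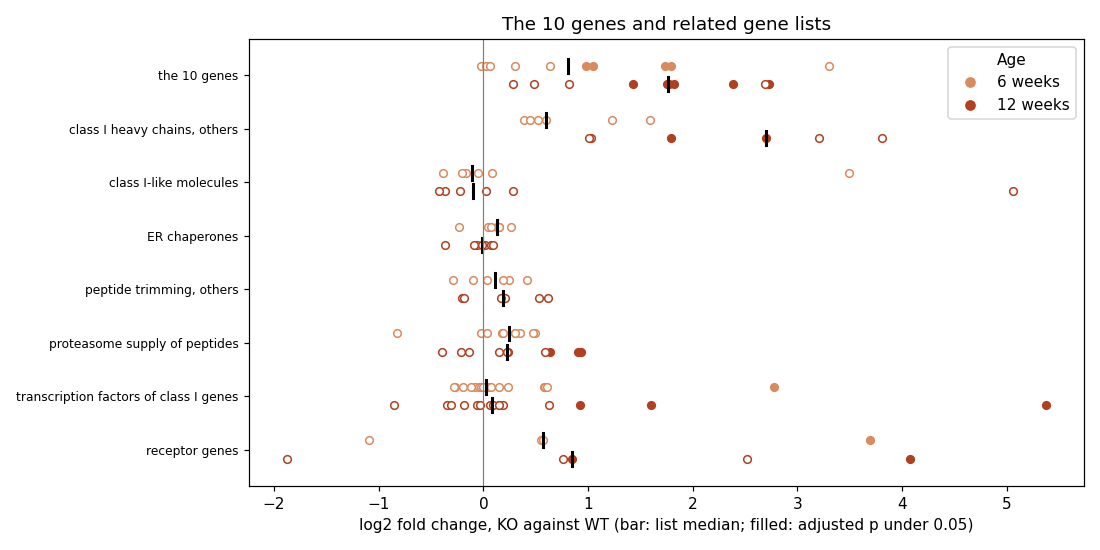
Log2 fold change of KO against WT for the 10 genes and for the tested genes of 7 related lists (rows) at 6 and 12 weeks; points are genes, filled where adjusted p was under 0.05 in edgeR, black bars are list medians, and genes without a count in WT are not drawn. At 12 weeks the medians are 1.76 for the 10 genes and 2.70 for other heavy chains, beside -0.02 for the chaperones and 0.23 for proteasome genes.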

How the data were processed

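The authors deposited raw read counts per gene for each of 16 libraries, per the labels and the file values. Per the submitters' processing notes, the tools were HTSeq 0.11.0, TopHat, cutadapt 2.10, FastQC 0.11.9, Picard 2.13.2 and SAMtools 1.10, with build GRCm39. How multiply mapped reads were handled, whether strand was used and which annotation was counted is not given in the sources used here. A table of the whole series held the same counts and was used for that check alone.

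A filter on low counts (edgeR's filterByExpr, minimum count 10) left 17090 of 53700 genes. Tests used edgeR 4.0.16 with limma 3.58.1 in R 4.3.3: TMM scaling, a robust quasi-likelihood fit to all 16 libraries with a term per group and a term for sex, two-sided, Benjamini-Hochberg over all genes tested, threshold 0.05. CPM use TMM-scaled library sizes, and errors are SD over 4 libraries. Standard errors are approximate, the absolute log2 change over the square root of F. The fit was tested on simulated data. The common dispersion was 0.421.

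Alternatives were other scaling factors, no filter, DESeq2 1.42.0, no sex term, a replicate block, only the compared libraries and each library left out. The block joined same-numbered libraries of both ages. It gave 12-week WT libraries 5_6 and 8, whose numbers no other library shares, terms of their own. Libraries of 1 group differed by more than sampling noise (lowest chi-square per degree of freedom 16.0). Correlations of deviations between same-numbered WT and KO libraries lay from -0.011 to 0.062 and were all positive at 6 weeks. Between differently numbered libraries they lay from -0.061 to 0.039. At 12 weeks only numbers 3 and 4 occur in both genotypes. The labels do not say that a number marks a shared litter or day, so numbers were not taken as pairs. At a floor of 3 counts a library could show 0.131 to 0.375 CPM. Such floors cover counting error only.

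The 10 genes and the related lists were chosen with earlier results of these data known. From the list of transcription factors, 1 gene is not reported here. From each list the text names every gene past the threshold in KO against WT and the 3 with the highest mean CPM, and for likeness the genes with a mean of at least 5 CPM and the highest r. A few further genes of the lists are named beside these. Motifs were chosen with the sequences in view.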

Additional observations from a re-analysis of the deposited data

Results flagged for a closer look

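In 40 sets of 4 libraries (10 genes in 4 groups), 3 had 1 library far from the other 3 by Dixon's ratio at the 95% level, where chance gives about 1 in 20. H2-K1 in 12-week WT was 235.9 CPM in library 3, and the nearest other library had 175.9. Nlrc5 in 6-week WT was 2.54 CPM in library 4 and at most 0.0789 in the others. Erap1 in 6-week KO was 86.3 CPM in library 4, and the nearest other library had 117.4.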

How the results depend on the processing

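Of 939 recomputed changes of single genes, 876 kept direction and side of the threshold, 12 lost and 20 gained the call, and 31 turned sign. H2-D1, H2-K1 and B2m were called in KO against WT under every setting run at both ages. The count of genes called ranged from 3 to 5 at 6 weeks and from 5 to 8 at 12 weeks, and from 3 to 4 and 5 to 6 with single libraries left out. With the replicate number as a block in place of sex it was 4 and 5, and H2-T23 at 12 weeks was the gene lost (1.85, adjusted p = 0.14, edgeR). In that fit the 12-week WT level rested on libraries 3 and 4. The count for 12 against 6 weeks in KO moved from 0 to 3 without a filter and to 5 in DESeq2, and that for the difference of KO effects from 0 to 2 under both. The cause was not tested.

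Signs turned only for changes not past the threshold. With single libraries left out, KO against WT at 6 weeks ranged from -0.21 to 0.14 for Tap1, -0.088 to 0.12 for Tap2 and -0.056 to 0.12 for Tapbp; 12 against 6 weeks in KO from -0.20 to 0.043 for Tap2; in WT from -0.17 to 0.085 for H2-M3 and -0.28 to 5.54 for Nlrc5; and the difference of KO effects from -4.54 to 0.87 for Nlrc5 and -0.43 to 0.17 for Erap1. Without 12-week WT 3 and 8, Erap1 was -0.10 at 12 weeks in KO against WT, and in WT over age B2m was -0.022 and Erap1 0.24. Leaving out KO 4 as well gave -0.037 and 0.20. The Nlrc5 difference of effects was 0.37 and 0.81 in these 2 settings, and Tap2 over age in KO was 0.054 in the second and 0.015 with only the compared libraries. Total counts gave 0.020 for H2-M3 over age in WT, and the block 0.10 for the Erap1 difference.

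Over all genes, 149 were called at 6 weeks, 353 without a filter, 366 in DESeq2 and 82 to 100 with a library left out. At 12 weeks 510 were called, 1073 without a filter, 1157 in DESeq2, 181 with the block, 204 with only the compared libraries, 328 without KO 2, 307 without WT 3 and 8 and 251 without KO 4 as well. For age in KO 4 were called, with 204, 270, 16 and 1 without a filter, in DESeq2, without sex and with the block. For age in WT 2 were called, with 194 and 150 without a filter and in DESeq2, and for the difference of effects 1, with 132 and 53. Counting error matters mainly for Nlrc5, with 0 to 21 counts in 6-week WT libraries. The settings that left out 12-week WT 3 and 8, with or without KO 4, were chosen after seeing the data.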
